A study of Bos indicus x Bos taurus with 78 samples.

Results

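The miR-17-92 cluster, the related miR-106b-25 cluster and miR-32 were followed in small RNA libraries of loin muscle (Longissimus lumborum) biopsies from 78 male Bos indicus x Bos taurus steers. The 10 miRNAs were taken by name from the count table: bta-miR-17-5p, bta-miR-18a, bta-miR-19a, bta-miR-19b, bta-miR-20a and bta-miR-92a of the first cluster, bta-miR-93, bta-miR-106b and bta-miR-25 of the second, and bta-miR-32. The prefix marks the cow and is left out from here on. They are 10 of the 1030 miRNA rows of that table. By the labels 25 steers were dark-cutting and 53 were normal. The labels grade dark-cutting by degree: 8 steers were of degree 1/4, 9 of 1/3, 3 of 1/2, 4 of 2/3, and 1 was of 3/4. Dark-cutting beef stays dark and dry after slaughter and is known to arise when muscle runs short of glycogen before slaughter. The labels name no treatment, age or batch, and each library is 1 animal by its title number. A biopsy holds muscle fibres together with vessels, blood and connective tissue, so less RNA per cell and fewer cells of a type cannot be told apart.

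A miRNA guides the silencing complex to target mRNAs mainly through its seed, a short stretch near its 5′ end. The miR-17-92 cluster is cut from one primary transcript that MYC and E2F factors are known to switch on in dividing cells, and it is best known for promoting proliferation and survival. The miR-106b-25 cluster lies in an intron of the replication gene MCM7, and miR-32 lies in an intron of TMEM245, both as known in human. By seed, miR-17-5p, miR-20a, miR-93 and miR-106b form the miR-17 family, known to repress the cell cycle inhibitor CDKN1A. In the same way miR-19a and miR-19b form the miR-19 family, and miR-92a, miR-25 and miR-32 form the miR-25 family, while miR-18a stands alone. These groups are background knowledge and were not checked by sequence here.

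The libraries held between 1427817 and 4535675 counts (median 3209320), and 84.1% ± 2.76 (SD, n = 78) of them were miR-1, the dominant muscle miRNA. The 10 miRNAs together held 0.101% ± 0.0231 (SD, n = 78) of the counts. All 6 muscle miRNAs listed as markers (miR-1, miR-133a, miR-133b, miR-206, miR-208b and miR-499) were found in the biopsies. Levels are given as CPM, a count relative to the size of its library, after TMM scaling, which sets libraries to a common level over most miRNAs. A read covers a whole mature miRNA, so levels need no length correction, but ligation favours some miRNAs over others and levels of different miRNAs are compared only roughly. The spread over steers was read against the spread that counting alone would give, which covers counting error only.

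Within the miR-25 family, miR-92a was the most abundant of the 10 miRNAs, at 291 ± 47.1 CPM (SD, n = 78). Next to it stood miR-32, at 277 ± 102 CPM (SD, n = 78). The order of these 2 was not fixed: miR-92a exceeded miR-32 in 44 of 78 steers. The third member, miR-25, averaged 134 ± 24.6 CPM (SD, n = 78), below miR-32 in 76 of 78 steers. Of the reads of the 10 miRNAs, 27.6% ± 8.003 (SD, n = 78) belonged to miR-32 alone, 37.1% ± 5.32 to the 6 miRNAs of miR-17-92 and 35.3% ± 4.23 to the 3 of miR-106b-25.

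Within the miR-17 family, the 2 members cut from the MCM7 intron were the more abundant. These were miR-93 at 124 ± 25.2 CPM and miR-106b at 88.7 ± 11.3 CPM (SD, n = 78). The 2 members from miR-17-92 were lower, with miR-20a at 21.1 ± 5.39 CPM and miR-17-5p at 19.4 ± 4.53 CPM (SD, n = 78). In the miR-19 family, miR-19b averaged 22.4 ± 4.16 CPM and miR-19a 5.10 ± 2.16 CPM (SD, n = 78). The lone miR-18a averaged 5.64 ± 1.75 CPM (SD, n = 78). The order held in every steer at 2 places: miR-106b exceeded miR-19b in 78 of 78 steers, and miR-17-5p exceeded miR-18a in 78 of 78. Elsewhere neighbours changed places, with miR-25 above miR-93 in 47 steers, miR-19b above miR-20a in 50, miR-20a above miR-17-5p in 48 and miR-18a above miR-19a in 46. So miRNAs listed here under one cluster differed widely in level, miR-92a being counted far more often than miR-18a or miR-19a. Counts per mature miRNA do not show the hairpin of origin. Reads from a copy in another cluster would be counted with them.

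**Figure D1:**
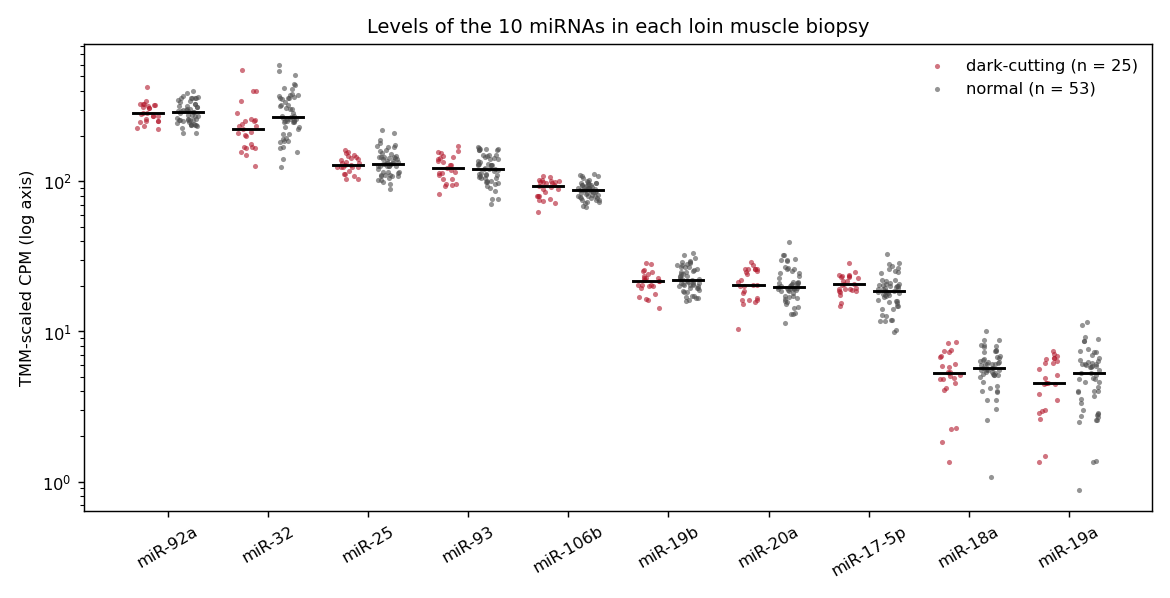
TMM-scaled CPM on a log axis of the 10 miRNAs in each of 25 dark-cutting and 53 normal steers, from the most to the least abundant. Points are steers and black bars are group medians; the medians of miR-32 are 224 CPM in dark-cutting and 269 CPM in normal steers, and the points of both groups overlap for every miRNA.

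The spread between steers was not alike among the 10. The steadiest was miR-106b, with a coefficient of variation of 12.8% where counting alone would give 6.01%. Its log2 CPM had the 249th largest SD of the 252 miRNAs tested. The SD of miR-92a ranked 240th and that of miR-25 227th. In contrast, miR-32 had a coefficient of variation of 36.7% where counting would give 3.42%. Among the 21 miRNAs made up of miR-32 and the 20 nearest to it in mean level, its SD of log2 CPM, 0.51, was second. For miR-19a, with a median of 17 counts per library, the coefficient of variation was 42.4% where counting would give 25.4%, and for miR-18a it was 30.98% where counting would give 23.7%.

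The first question was whether the 10 miRNAs differed between dark-cutting and normal steers. By the quasi-likelihood test of edgeR, with p adjusted over the 252 miRNAs tested after Benjamini and Hochberg, 0 of the 10 passed, and their smallest adjusted p was 0.414. Neither did any other miRNA (0% of 252). Before adjustment p was under 0.05 for 23 of all 252 (9.13%) and for 1 of the 10, miR-32, a share close to that background. DESeq2 also gave 1 of the 10 and limma-voom 2, and 0 of the 10 passed by either after adjustment. Log2 fold changes of dark-cutting minus normal were above 0 for 4 of the 10 miRNAs, as they were for 46% of all those tested. Without replicate 3 of degree 2/3 it was 2 of the 10. Their median was -0.03, against -0.01 for all 252.

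The miRNA with the lowest p of the 10 was miR-32, which in dark-cutting steers ran from 126 to 548 CPM with a median of 224, against 125 to 594 CPM with a median of 269 in normal steers. The 2 groups overlapped over almost their whole range, with 5 of 25 dark-cutting values over the normal median. The mean was 242 ± 95.4 CPM in dark-cutting steers (SD, n = 25) and 294 ± 101 CPM in normal steers (SD, n = 53). Its log2 fold change was -0.28 ± 0.12 (SE), with a 95% interval of -0.52 to -0.05, and edgeR gave p = 0.0181 and adjusted p = 0.414. The authors' deposited table, which names no contrast, lists a log2 fold change of -0.28 ± 0.12 (SE) with adjusted p = 0.555 for miR-32. The value was alike in the 26 steers with title numbers below 600, at -0.30 ± 0.20 (SE), and in the 52 others, at -0.28 ± 0.14. Leaving out replicate 4 of degree 1/4, the dark-cutting steer with 548 CPM, gave -0.36 and adjusted p = 0.107.

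The other 2 miRNAs of the miR-25 family had log2 fold changes close to 0. For miR-92a, levels in dark-cutting steers ran from 223 to 427 CPM with a median of 283, against 209 to 397 CPM with a median of 290 in normal steers. Its log2 fold change was -0.0039 (95% interval -0.12 to 0.11). For miR-25, dark-cutting steers ran from 104 to 161 CPM with a median of 129, against 88.2 to 220 CPM with a median of 131 in normal steers, and the log2 fold change was -0.05 (-0.18 to 0.08). The lowest and highest miR-25 values both came from normal steers.

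In the miR-17 family, miR-17-5p had the second lowest p of the 10. Dark-cutting steers ran from 14.7 to 28.4 CPM with a median of 20.7, against 9.91 to 33.02 CPM with a median of 18.5 in normal steers. The dark-cutting steers lay inside the normal range at both ends, with 21 of 25 over the normal median. Its log2 fold change was 0.15 (95% interval -0.02 to 0.31, p = 0.0747, adjusted p = 0.416 by edgeR). For miR-20a, of the same seed and cluster, dark-cutting steers ran from 10.4 to 29.2 CPM with a median of 20.3, against 11.4 to 39.3 CPM with a median of 19.8 in normal steers, and the log2 fold change was 0.01 (-0.17 to 0.19). The log2 fold change was 0.01 (-0.13 to 0.16) for miR-93, with medians of 123 CPM in dark-cutting and 120.5 CPM in normal steers. For miR-106b it was 0.04 (-0.06 to 0.14), with medians of 93.1 CPM in dark-cutting and 88.0 CPM in normal steers.

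The remaining miR-17-92 miRNAs all had log2 fold changes below 0, with intervals that held 0. For miR-19b it was -0.08 (95% interval -0.22 to 0.06), for miR-19a -0.12 (-0.42 to 0.19) and for miR-18a -0.13 (-0.37 to 0.10). Their medians were 21.8, 4.57 and 5.31 CPM in dark-cutting steers, against 21.99, 5.32 and 5.72 CPM in normal steers. The wide intervals of miR-18a and miR-19a go with their low counts, at medians of 19 and 17 per library.

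**Figure D2:**
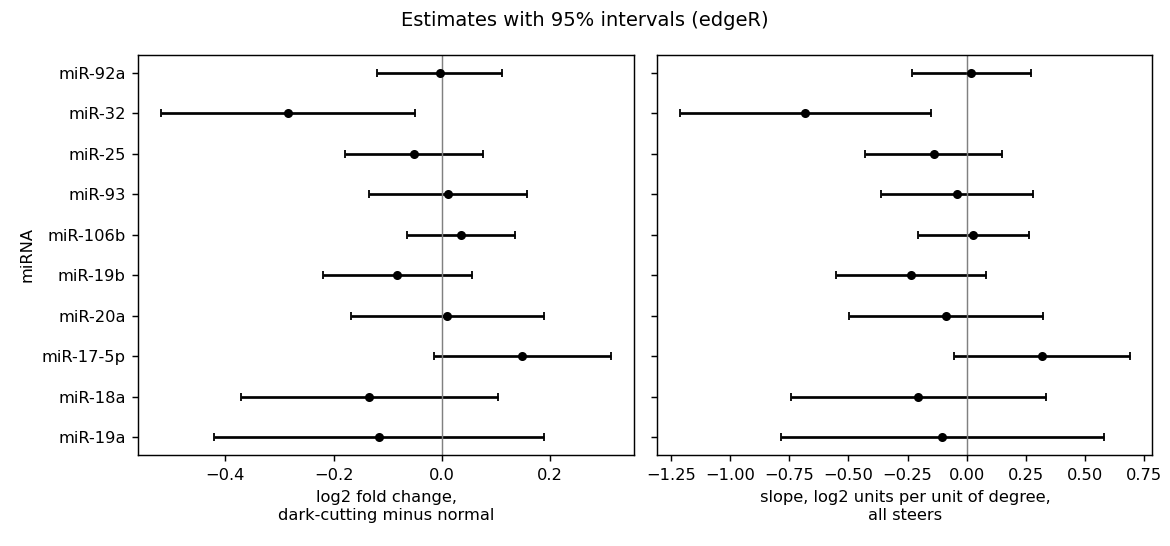
Estimates with 95% intervals for each miRNA by edgeR: left, the log2 fold change of 25 dark-cutting minus 53 normal steers; right, the slope on the degree of dark-cutting in log2 units per unit of degree. The intervals of miR-32 lie below 0 in both panels before adjustment over all miRNAs, and those of the other 9 cross 0.

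Scaling by total count alone, with miR-1 holding most counts, moved the median log2 fold change of all 252 miRNAs to 0.10. On that scale 7 of the 10 were above 0 with a median of 0.09, so the signs of miR-19b, miR-25 and miR-92a turned. The log2 fold change of miR-32 was -0.23 on it.

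The next question was whether the 10 miRNAs moved with the degree of dark-cutting. Every degree was compared with the same 53 normal steers, so the values of different degrees share their reference. For degree 1/4, the log2 fold changes ran from -0.21 to 0.16, and the lowest p were those of miR-92a, at -0.13 ± 0.09 (SE), and miR-17-5p, at 0.16 ± 0.13. Of all 272 miRNAs tested for the degrees, 1.1% had an unadjusted p under 0.05 in degree 1/4, and none of the 10 did. In degree 1/3 that share was 9.19% of all miRNAs, and 2 of the 10 were among them. These were miR-32, at -0.45 ± 0.18 (SE, p = 0.0152), and miR-18a, at -0.40 ± 0.18 (p = 0.0316), with adjusted p = 0.409 and 0.435 by edgeR. With scaling by total count neither had an unadjusted p under 0.05, while 24 of all 272 miRNAs did. For miR-18a, degree 1/3 ran from 1.345 to 7.34 CPM with a median of 4.84, and 2 of the 9 steers lay above the normal median of 5.72 CPM.

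Degree 1/2 had log2 fold changes above 0 for 9 of the 10 miRNAs, as against 49.6% of all 272, with miR-32 the exception. The lowest p were those of miR-32, at -0.52 ± 0.30 (SE), and miR-92a, at 0.16 ± 0.13. With DESeq2's size factors 7 of the 10 were above 0, and leaving out any 1 of the 3 steers left 6 or 7. In degree 2/3 only 2 of the 10, miR-17-5p and miR-19a, were above 0, as against 33.1% of all 272. It was 4 of the 10 without replicate 4, and also with scaling by total count or with no filter. The lowest p there were those of miR-19b, at -0.23 ± 0.15, and miR-32, at -0.32 ± 0.26. By edgeR 0 of the 10 passed in any degree, with adjusted p of 0.409 or more, while 0%, 0%, 0% and 0.368% of all miRNAs passed in degrees 1/4, 1/3, 1/2 and 2/3. In degrees 1/2 and 2/3 no unadjusted p of the 10 was under 0.05, where 4.78% and 2.57% of all miRNAs had one.

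Across the degrees miR-32 showed overlapping steers at every step. Degree 1/4 ran from 126 to 548 CPM with a median of 253, and degree 1/3 from 156 to 345 CPM with a median of 201. The 3 steers of degree 1/2 had 150, 232 and 214 CPM, all below the normal median of 269 CPM and inside the normal range. The 4 steers of degree 2/3 had 252, 401, 176 and 167 CPM, 1 of them above the normal median, and the steer of degree 3/4 had 234 CPM. The value of degree 2/3 leaned on single steers: its log2 fold change was -0.66 without replicate 2, the steer with 401 CPM, and -0.17 without replicate 3. In degree 1/2, leaving out single steers gave values from -0.66 to -0.34.

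**Figure D3:**
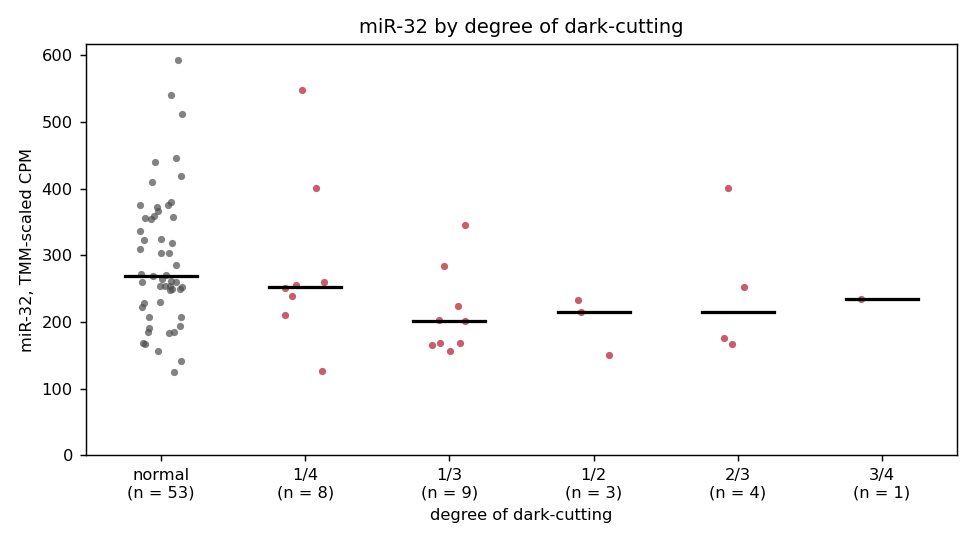
TMM-scaled CPM of miR-32 by labelled degree, with normal steers at the left and the degrees 1/4 to 3/4 to the right. Points are steers and bars are medians: 269 CPM in normal steers, then 253, 201, 214, 214 and 234 CPM, and every degree overlaps the normal range.

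The rarest miRNA, miR-19a, had a narrow range in degree 2/3, where its 4 steers had 6.40, 6.53, 7.45 and 6.64 CPM. All were above the normal median of 5.32 CPM and inside the normal range of 0.881 to 11.5 CPM. The coefficient of variation of miR-19a there was 7.03%, and that of miR-19b was lower, at 4.46%. The spread that counting alone would give was not computed for this degree. The steer of degree 3/4 had 2.61 CPM of miR-19a. With 17 to 25 counts per library in degree 2/3, the log2 fold change of miR-19a was 0.29 ± 0.32 (SE).

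Over all 78 steers, with normal steers taken as degree 0, the slope of miR-32 was -0.68 ± 0.27 (SE) log2 units per unit of degree (95% interval -1.21 to -0.15, p = 0.0122, adjusted p = 0.322 by edgeR). Of the 10, miR-32 alone had an unadjusted p under 0.05, which 11% of all 272 miRNAs had, and 0.368% of them passed after adjustment. Slopes were above 0 for 3 of the 10 and for 44.5% of all 272, and for 1 of the 10 without replicate 1 of degree 1/2 or without replicate 3 of degree 2/3. Such a slope can come from dark-cutting against normal steers alone. The slope of miR-17-5p was 0.32 ± 0.19 and that of miR-19b -0.23 ± 0.16. The others were at -0.20 ± 0.27 for miR-18a, -0.14 ± 0.15 for miR-25, -0.10 ± 0.34 for miR-19a, -0.09 ± 0.21 for miR-20a, -0.04 ± 0.16 for miR-93, 0.03 ± 0.12 for miR-106b and 0.02 ± 0.13 for miR-92a. Without replicate 2 of degree 2/3 the slope of miR-32 was -0.90, with adjusted p = 0.0996. With scaling by total count alone 9 of the 10 slopes were above 0, miR-32 being the exception at -0.52, and the median over all 272 miRNAs was 0.19, against -0.04 with TMM.

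Within the 25 dark-cutting steers none of the 10 slopes had an unadjusted p under 0.05, which 3.59% of 251 miRNAs had, and 0% passed after adjustment. The lowest p were those of miR-20a, at -0.59 ± 0.47 (SE), and miR-32, at -0.58 ± 0.56 (adjusted p = 0.998 for both by edgeR). Slopes were above 0 for 4 of the 10 and for 39% of all 251. Leaving out each of the 7 steers of degrees 1/2 and 2/3 gave slopes of -1.04 (without replicate 2 of degree 2/3) to -0.38 (without replicate 1 of degree 1/2) for miR-32, and scaling by total count gave -0.29.

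Because miRNAs of a cluster share a primary transcript, the 10 were also compared with each other across steers. Over the 45 pairs, Pearson's r of log2 CPM ran from -0.40 to 0.44, and 16 pairs passed a two-sided permutation test of 100000 resamples after Benjamini-Hochberg adjustment over the 45. Within miR-17-92, 14 of 15 pairs were above 0, with a median r of 0.22, and 6 passed. Across the clusters, pairs with miR-32 included, 18 of 27 pairs were above 0, with a median r of 0.05, and 9 passed. The largest r of the 45, 0.44, was across clusters and seeds, between miR-92a and miR-93 (rho = 0.41, permutation p = 0.0001 and 0.00026, adjusted p = 0.00278 and 0.00383). Whether pairs within a cluster differ from the others was not tested. The share of passing pairs among all the miRNAs tested was not computed, so these counts have no background beside them. The miRNA of this cluster most often found with the others was miR-20a. With miR-17-5p its r was 0.38 (rho = 0.39, permutation p = 0.00058 and 0.00052, adjusted p = 0.00326 and 0.0039, n = 78). With miR-19b its r was 0.38 (rho = 0.397, permutation p = 0.00048 and 0.00034, adjusted p = 0.00309 and 0.00383). Between miR-19a and miR-19b r was 0.28 (rho = 0.24, permutation p = 0.0119 and 0.0323, adjusted p = 0.0429 and 0.104), and between miR-18a and miR-20a 0.23 (rho = 0.1995, permutation p = 0.0402 and 0.0792, adjusted p = 0.106 and 0.186). Between miR-17-5p and the abundant miR-92a r was 0.03 (rho = 0.02, permutation p = 0.827 and 0.894, adjusted p = 0.922 and 0.933), although both are listed under this cluster.

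In miR-106b-25, 1 of 3 pairs passed, and 2 of 3 without replicate 19 of the normal steers, which had the highest miR-25 level of all. Between miR-93 and miR-106b r was 0.28 (rho = 0.295, permutation p = 0.0133 and 0.00901, adjusted p = 0.0429 and 0.0312, n = 78), and it missed the threshold without the 2 steers farthest from the median (adjusted permutation p = 0.0542). For miR-25, r was 0.18 with miR-93 (rho = 0.18, permutation p = 0.12 and 0.116, adjusted p = 0.216 and 0.227) and -0.23 with miR-106b (rho = -0.21, permutation p = 0.0429 and 0.0594, adjusted p = 0.107 and 0.148). Without that replicate 19 the last r was -0.28, with adjusted permutation p = 0.0407. Across the clusters the shared seed of the miR-17 family went with r = 0.36 between miR-20a and miR-106b (rho = 0.32, permutation p = 0.00121 and 0.00493, adjusted p = 0.00605 and 0.0222). The shared seed of the miR-25 family went with r = 0.08 between miR-92a and miR-25 (rho = 0.10, permutation p = 0.502 and 0.375, adjusted p = 0.685 and 0.544) and -0.02 between miR-25 and miR-32 (rho = -0.02, permutation p = 0.84 and 0.865, adjusted p = 0.922 and 0.93). The third pair of that seed, miR-92a with miR-32, was below 0 at -0.34 and passed (rho = -0.32, adjusted permutation p = 0.0115 and 0.0222). Over all pairs of one seed, 7 of 10 passed with a median r of 0.28. Among pairs of different seeds 9 of 35 passed, with a median r of 0.07, and this contrast was not tested. Near-identical miRNAs such as those of the miR-17 family can share reads, and the sources used here do not say how such reads were split.

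Leaving out the 2 steers farthest from the median of the first miRNA gave r = 0.31 for miR-17-5p with miR-20a, 0.45 for miR-19b with miR-20a, 0.29 for miR-19a with miR-19b, 0.28 for miR-93 with miR-106b and 0.30 for miR-20a with miR-106b. Within title numbers below 600 (26 steers) these r were 0.48, 0.43, 0.21, 0.19 and 0.32, and within 600 or above (52 steers) 0.32, 0.33, 0.28, 0.25 and 0.35. These 5 pairs were above 0 in both ranges, and none of them passed after adjustment within either.

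Pairs with miR-32 stood out by sign: 7 of 9 were below 0, and 4 passed. These were miR-93, miR-20a, miR-17-5p and miR-92a, at r = -0.40, -0.40, -0.395 and -0.34 (rho = -0.38, -0.43, -0.39 and -0.32, permutation p = 0.00031, 0.00023, 0.00035 and 0.00256, adjusted p = 0.00278, 0.00278, 0.00278 and 0.0115, n = 78). Without the 2 farthest steers r was -0.35, -0.39, -0.35 and -0.32, below 600 it was -0.39, -0.29, -0.34 and -0.38, and at 600 or above -0.38, -0.45, -0.42 and -0.28. This pattern rested on the scaling. With scaling by total count alone, the same 4 pairs had r of 0.07, -0.02, 0.08 and 0.15. On that scale all 36 pairs without miR-32 were above 0, from 0.26 to 0.74, and all 36 passed, while 3 of the 9 pairs with miR-32 did. The median r of the pairs with miR-32 was -0.19 by TMM and 0.15 by total count, where the other 36 pairs had a median of 0.52.

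**Figure D4:**
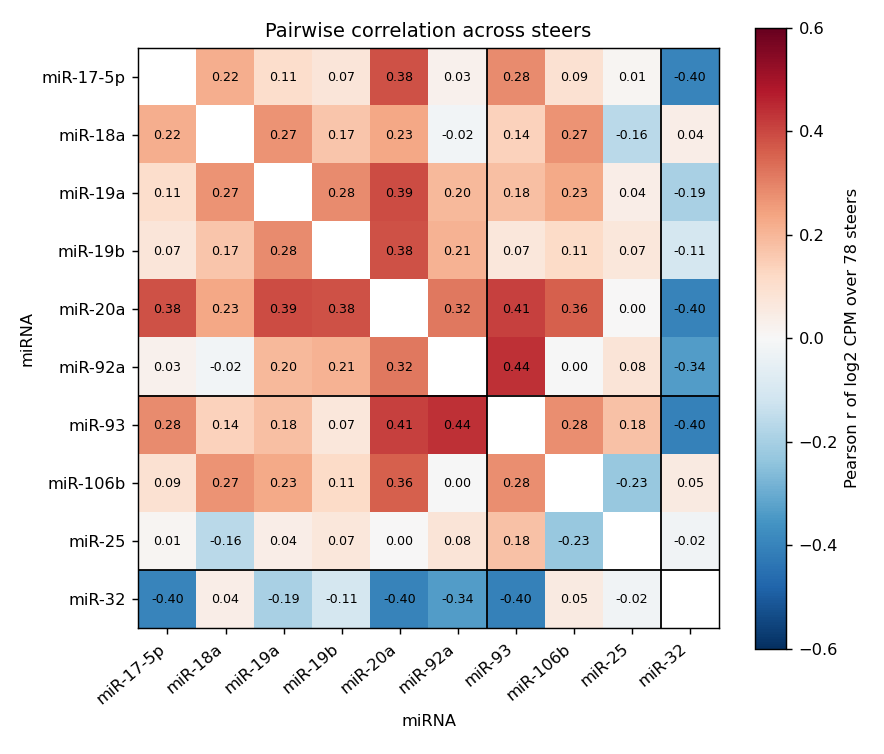
Pearson r of log2 CPM (TMM) for each pair of the 10 miRNAs over 78 steers; black lines separate miR-17-92, miR-106b-25 and miR-32. The row of miR-32 is mostly blue, down to -0.40, and the row of miR-20a mostly red, up to 0.41 with miR-93.

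Outside the 10, the miRNA whose pattern was most like that of miR-32 was miR-208b, encoded in an intron of the slow myosin gene MYH7. Over the 78 steers r was 0.71 and rho 0.71, the largest r of the 242 others tested, so that no p is given for it. It was 0.69 without the 2 steers farthest from the miR-32 median, 0.66 and 0.72 in the 2 ranges of title numbers and 0.76 with scaling by total count alone. Within the phenotypes r was 0.60 in the 25 dark-cutting steers and 0.74 in the 53 normal steers. Next came miR-16a, of the miR-15/16 family known for restraining the cell cycle, with r = 0.696 (rho = 0.68). The level of miR-208b was 63.8 CPM on average in dark-cutting steers, from 19.7 to 171 CPM, and 79.9 CPM in normal steers, from 20.5 to 223 CPM. Its log2 fold change was -0.33 ± 0.17 (SE, p = 0.0597, adjusted p = 0.416 by edgeR), and its slope on the degree was -0.89 ± 0.39 (adjusted p = 0.346). Both directions were those of miR-32, and the part of miR-208b in the miR-32 values was not tested.

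**Figure D5:**
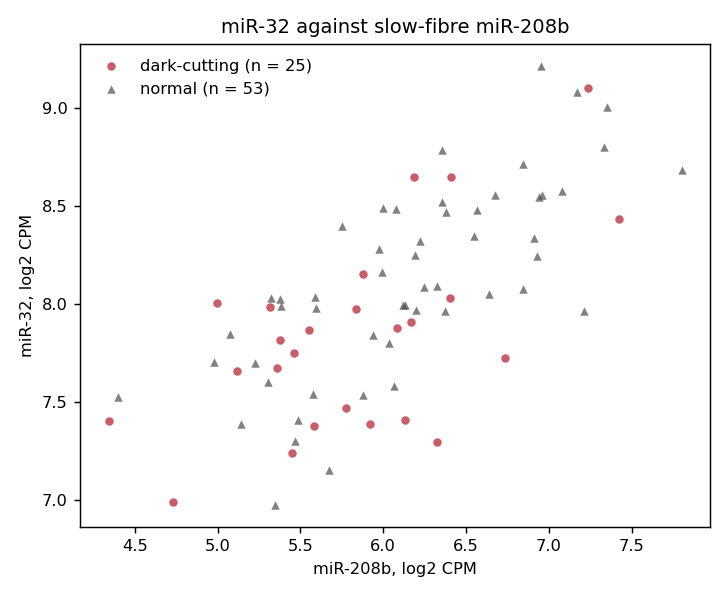
Log2 CPM of miR-32 against that of the slow-fibre miRNA miR-208b, with 1 point per steer (25 dark-cutting, 53 normal). Steers high in one were high in the other within both groups (r = 0.60 in dark-cutting and 0.74 in normal steers).

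For the other 9 miRNAs the most similar outsider was miR-660 for miR-93 (r = 0.69), miR-10b for miR-92a (0.60), miR-140 for miR-25 (0.58), miR-378c for miR-20a (0.53) and for miR-19a (0.42), miR-29a for miR-106b (0.47), miR-103 for miR-17-5p (0.44), miR-339a for miR-19b (0.41) and miR-424-5p for miR-18a (0.30), each over 78 steers and among 242 miRNAs.

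Of 80 relations of the 10 miRNAs with 8 measures (sums of marker miRNAs, the miR-1 share and the total count), 17 passed for r, the most, 5, with smooth muscle and pericytes. The share of passing relations among all the miRNAs tested was not computed, so this count has no background beside it. Markers of some other cells in the biopsy, but not of all, moved with miR-32. Its r was 0.58 with the summed level of 5 white blood cell miRNAs (rho = 0.56, adjusted permutation p = 0.0002 and 0.00016 over the 80, n = 78), where the raw p of 1e-05 is the smallest the resampling can give. This r was 0.53 without the 2 steers farthest from the median, and 0.41 and 0.64 in the lower and higher range of title numbers. With 2 endothelial miRNAs r was 0.56 (rho = 0.56, adjusted permutation p = 0.0002 and 0.00016), and 0.54 without 2 steers. It was 0.36 with the smooth muscle and pericyte sum (rho = 0.42, adjusted permutation p = 0.00824 and 0.00142) and 0.33 with the muscle sum without miR-1 (rho = 0.30, adjusted permutation p = 0.0229 and 0.0342). The fibroblast sum did not pass with miR-32, at r = -0.14 (rho = -0.16, adjusted permutation p = 0.417 and 0.274). Neither did the red blood cell sum, at r = -0.05 (rho = -0.25, adjusted permutation p = 0.780 and 0.0691). That r was -0.63 and 0.15 in the lower and higher range of title numbers. All 5 white blood cell miRNAs were found, and their sum ran from 51.8 to 140 CPM with a median of 78.2 in dark-cutting steers, against 50.4 to 220 CPM with a median of 86.1 in normal steers. The endothelial sum ran from 3201 to 6814 CPM in dark-cutting steers, against 3469 to 7895 CPM in normal steers. The smooth muscle and pericyte sum ran from 12493 to 51953 CPM in dark-cutting steers, against 12416 to 68331 CPM in normal steers. It is made up of miR-143 and miR-145, whose log2 fold changes of dark-cutting minus normal were -0.23 and 0.07. Neither passed (adjusted p = 0.416 and 0.818 by edgeR). The part of these markers in the miR-32 values was not tested.

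The lowest r of the 80 were those of miR-20a and miR-93. With the smooth muscle and pericyte sum, miR-92a (r = -0.44, rho = -0.42, adjusted permutation p = 0.0008 and 0.00144), miR-93 (-0.31, rho = -0.38, adjusted permutation p = 0.0324 and 0.00427) and miR-25 (0.35, rho = 0.31, adjusted permutation p = 0.0120 and 0.0342) passed as well. Scaling by total count gave r = -0.12 for miR-92a, -0.03 for miR-93 and 0.36 for miR-25. By TMM, that of miR-93 was -0.55 at title numbers below 600 and -0.18 at 600 or above. For miR-20a, r was -0.52 with the endothelial sum, -0.47 with smooth muscle and pericytes and -0.38 with white blood cells (adjusted permutation p = 0.0002, 0.0004 and 0.00444 for r, rho = -0.52, -0.58 and -0.45, n = 78), and scaling by total count gave 0.12, -0.25 and 0.05. For miR-93, r was -0.46 with the white blood cell sum, -0.42 with the endothelial sum and -0.52 with the muscle sum without miR-1 (adjusted permutation p = 0.0004, 0.0008 and 0.0002 for r, rho = -0.46, -0.43 and -0.54, n = 78). For miR-93 scaling by total count turned these to 0.10, 0.29 and 0.23, while those of miR-32 with the white blood cell and endothelial sums were 0.68 and 0.67 on that scale. Red blood cells are known to carry much miR-92a, which had r = 0.31 with the sum of miR-451, miR-144 and miR-486 (rho = 0.37, adjusted permutation p = 0.0260 and 0.00462), 0.37 without 2 steers, and 0.47 and 0.27 in the 2 ranges of title numbers. That sum ran from 454 to 1006 CPM in dark-cutting steers, against 373 to 3683 CPM in normal steers, with medians of 718 and 660 CPM. By median level miR-486 was the largest part, at 532 CPM over the 78 steers, against 116 CPM for miR-451 and 5.23 CPM for miR-144. The log2 fold changes of dark-cutting minus normal were -0.86 for miR-144, -0.52 for miR-451 and 0.08 for miR-486. None passed (adjusted p = 0.182, 0.416 and 0.791 by edgeR). Which of these markers went with miR-92a was not tested, nor was whether their sum follows the amount of blood in a biopsy. With the logarithm of the total count per library, r ran from -0.25 for miR-25 to 0.24 for miR-18a, with no adjusted permutation p of r under 0.05. By rank, miR-25 had rho = -0.28 (adjusted permutation p = 0.0498, n = 78).

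Of the 7 listed relatives, 1 had enough counts to be tested between dark-cutting and normal steers: miR-363, from the paralogous miR-106a-363 cluster and of the miR-25 family. It ran from 0.375 to 8.17 CPM with a median of 3.77 in dark-cutting steers, against 0 to 9.45 CPM with a median of 4.04 in normal steers. Its log2 fold change was -0.06 (95% interval -0.40 to 0.28), 0 of 1 tested relatives passing in either direction. Next in level was miR-106a of the miR-17 family, at 2.19 CPM in dark-cutting and 2.11 CPM in normal steers, which passed only the filter for degrees and the trend. Its log2 fold changes were 0.34 ± 0.28, -0.11 ± 0.27, -0.01 ± 0.44 and -0.19 ± 0.41 (SE) in degrees 1/4, 1/3, 1/2 and 2/3, with adjusted p of 0.949 or more by edgeR, and its slope over all steers was -0.03 ± 0.41. The others were miR-17-3p, the other arm of the miR-17 hairpin, at 0.992 and 0.963 CPM, miR-92b at 0.450 and 0.649 CPM, miR-20b at 0.513 and 0.566 CPM, miR-18b at 0.0368 and 0.201 CPM and miR-367 at 0.0582 and 0.108 CPM.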

How the data were processed

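Libraries were made with a NEXTflex small RNA kit from total RNA of 78 biopsies (labels' protocols). Trimmomatic 0.32, FastQC and DESeq2 1.34.0 appear in the submitters' processing notes. Aligner, counter and build: not given in the sources used here. As deposited, the count matrix holds whole-number read counts per mature miRNA with no normalization, as its whole-number values show. The authors' deposited table gives a mean normalized signal, log2 fold changes, a Wald score and p-values without naming a contrast.

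Groups follow the phenotype label. The test was that of edgeR 4.0.16 under R 4.3.3 (quasi-likelihood, robust, TMM, Benjamini-Hochberg, threshold 0.05). For dark-cutting against normal, filterByExpr (minimum count 10) kept 252 miRNAs. Degrees and trends needed the equivalent of 10 counts at the median library size in at least 8 libraries, with 15 counts in all. All 10 miRNAs passed both. Log2 CPM used a prior count of 2. The edgeR p-values weigh a difference or slope against the spread between these steers. The permutation p-values weigh a correlation against those of reshuffled steers.

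The miRNAs, lists and named pairs were chosen with earlier results of these data known. All 10 miRNAs are named for the phenotype and the trend over all steers, and the 2 of lowest p elsewhere; miR-18a and miR-19a in single degrees, the correlations of miR-32 with 4 of the miRNAs and the marker relations printed were picked after their values were seen. The split at title number 600 came from an earlier look at the data and is no labelled batch. Alternatives were DESeq2 1.42.0, limma 3.58.1 (voom), other scalings and filters, miR-1 left out, title-number range as a covariate, and steers left out. The edgeR test of each comparison was checked on simulated data. The permutation tests, the DESeq2 and limma-voom fits and the outlier check were not.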

Additional observations from a re-analysis of the deposited data

Results flagged for a closer look

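In degree 1/3, replicate 4 lay far below the other steers for miR-19b, at 3.91 log2 CPM against 4.38 in the next lowest of 9 steers. The gap was 0.583 of the whole range, above Dixon's critical value of 0.493. This was 1 flag in 30 combinations of a miRNA and a degree, where chance flags about 1 in 20 groups. For none of the 10 miRNAs did the phenotype difference itself differ between the ranges of title numbers after adjustment.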

How the results depend on the processing

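For dark-cutting against normal, the degrees and both trends, 0 of the 10 miRNAs passed under every setting tried. Scaling by total count turned the log2 fold changes of miR-19b (0.061), miR-25 (0.068) and miR-92a (0.11). It turned the slopes on degree of miR-18a (0.029), miR-19a (0.13), miR-19b (0.069), miR-20a (0.18), miR-93 (0.23) and miR-25 (0.12). It also turned r between miR-106b and miR-25 (0.52) and between miR-25 and miR-32 (0.26). The median of all miRNAs moved on that scale as well. The cause of these turns and of those that follow was not tested. The log2 fold change of miR-92a was 0.000887 by DESeq2, 0.000856 by limma-voom, 0.000695 with DESeq2's size factors, 0.012 with no low-count filter and 0.000317 with the title-number range as covariate. At title numbers of 600 or above it was 0.065, that of miR-93 -0.0088 and that of miR-106b -0.030; below 600, that of miR-18a was 0.00036 and that of miR-19a 0.0013. The slope of miR-19a was 0.048 by limma-voom, and that of miR-93 0.014 with no filter. For miR-17-5p with miR-92a, r was -0.098 at 600 or above, -0.083 within dark-cutting steers and -0.018 without the 2 farthest steers. For miR-25 with miR-32 it was 0.021 at 600 or above and 0.13 within dark-cutting steers.

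Leaving out each steer in turn gave log2 fold changes of -0.012 to 0.040 for miR-20a, -0.032 to 0.021 for miR-92a and -0.012 to 0.043 for miR-93. Slopes ran from -0.00036 to 0.085 for miR-106b, -0.20 to 0.038 for miR-19a, -0.071 to 0.083 for miR-92a and -0.089 to 0.047 for miR-93. No paired analysis was possible because each steer has its own title number and the replicate numbers follow accession order. Low counts limit miR-18a and miR-19a, and degrees 1/2, 2/3 and 3/4 hold few steers.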

Other observations

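In the 8 dark-cutting steers with title numbers below 600, miR-106b lay between 98.1 and 102 CPM, a coefficient of variation of 1.63% where counting alone would give 5.02%. In the 18 normal steers of that range it lay between 75.04 and 112 CPM, a coefficient of variation of 12.5%. The group was singled out after its values were seen, and no test was made.

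Dark-cutting steers varied less in miR-17-5p than normal steers, with coefficients of variation of 14.8% and 26.5% where counting would give 11.8% and 13.4%. For miR-25 these were 12.3% and 20.4%, where counting would give 4.77% and 5.03%, and for miR-32 they were 39.5% and 34.4%. These differences in spread were not tested.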
